A study of Homo sapiens with 20 samples.

Results

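The genes described here code for the nuclear-encoded subunits of the 5 complexes of oxidative phosphorylation and for the assembly factors named with them, 94 of the 18417 genes tested. They were chosen by symbol: NDUFA, NDUFB, NDUFC, NDUFS or NDUFV for Complex I, SDHA to SDHD for Complex II, UQCR for Complex III, COX followed by a digit for Complex IV and ATP5 for Complex V. Pseudogenes and non-coding transcripts were left out, as was COX11, and only transcript clusters of the array assigned to 1 gene were used. The 94 genes comprise 41 of Complex I (34 subunits and 7 assembly factors), 6 of Complex II (3 and 3), 7 of Complex III (all subunits), 22 of Complex IV (16 subunits, 5 assembly factors and COX7A2L, which takes part in supercomplexes) and 18 of Complex V (17 subunits and its inhibitor ATP5IF1). No measured value entered this choice.

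RNA levels were measured on 20 Affymetrix Human Gene 1.0 ST arrays in MDA-MB-231, an established human breast cancer line that is triple-negative and mesenchymal. Cells received cisplatin (Cis, 36 µM), a platinum drug that crosslinks DNA, ammonium tetrathiomolybdate (TM, 10 µM), a copper chelator, or both together (Cis/TM), or neither (Control). Each treatment was sampled at 12 h and 24 h with 3 arrays, except TM at 12 h with 2, and Control had 3. The doses and the vehicle given to Control cells come from the study's methods, and the labels give no time for the Control arrays, so the same 3 arrays served both times. All cells were of 1 line, treated in triplicate per the study's methods, and the labels do not tell whether the arrays of a group came from separate cultures. The p-values therefore measure the spread between these arrays, which may be technical, and the number of arrays limits the precision.

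The respiratory chain sits in the inner mitochondrial membrane. Complex I takes electrons from NADH and Complex II from succinate, and both pass them to ubiquinone. Complex III hands them on to cytochrome c, and Complex IV, which contains copper and heme A, passes them to oxygen. Complexes I, III and IV pump protons, and Complex V, the ATP synthase, uses the gradient to make ATP. Apart from a few mitochondrially encoded subunits, not analysed here, all parts are nuclear-encoded and imported, and transcription factors such as NRF1 and the ETS family factor GABPA are known to drive many of these genes.

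The values are log2 RMA signals, and a gene was called raised or lowered where limma's adjusted p was below 0.05 and the change exceeded 1.5-fold. Within groups, arrays correlated at r = 0.983 to 0.997 over 19 pairs. Of the marker genes, VIM, CD44, CAV1, AXL and ANXA1 had medians of 9.53 to 11.5, ESR1, PGR and CDH1 had 3.57 to 4.01, and the immune and endothelial markers PTPRC, CD3E, PECAM1 and CDH5 had 3.02 to 4.54, whereas GATA3, also listed as low, stood at 6.00, near the middle of the range (percentile 52.8). The SD over all genes was 2.03 to 2.18 on the treated arrays, against 2.01 to 2.03 on the Control arrays, and over all genes the log2 fold change correlated with the level (Spearman rho 0.23 to 0.50 across the 6 comparisons with Control, over 18417 genes that are not independent replicates). Among the 94 genes that correlation was -0.03 to 0.05. Its part in the results was not tested, and counts with the trend removed are given beside the main ones.

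RefSeq promoters (GRCh38.p14, 250 bases before to 50 after the start) were matched for 81 of the 94 genes. Short motifs of 4 kinds were searched on both strands: the NRF1 core TGCGCA, the ETS core CCGGAA, the YY1 core GATGGCG and the SP1 box GGGCGG. The NRF1 core is its own reverse complement, none of the motifs contains another, and partial overlaps were not removed. The ETS core was in 34 of the 81 promoters (42.0%), against 17.2% of all 35116 promoters in the table and 23.5% of those of 13769 protein-coding genes tested. The NRF1 core was in 25 (30.9%), against 8.2% and 11.1%. The YY1 core was in 9 (11.1%), against 4.2% and 5.9%, and the SP1 box in 47 (58.0%), against 45.0% and 60.7%. Among the promoters of the genes raised after 12 h of Cis, 21 of 42 held the ETS core and 16 held the NRF1 core, and among those not called, 13 of 37 and 9 did. These matches are a description of letters and were not tested.

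The last 150 bases before the start are shown for 4 genes that rose in most treatments and for 2 that fell, with motif letters in capitals and all others in lower case, 5′ to 3′ on the gene's strand.
NDUFV1 (chr11:67606786-67606935, strand +): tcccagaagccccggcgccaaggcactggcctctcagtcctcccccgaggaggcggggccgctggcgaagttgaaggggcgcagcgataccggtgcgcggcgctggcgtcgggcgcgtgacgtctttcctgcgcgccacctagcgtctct
SDHAF2 (chr11:61429974-61430123, strand +): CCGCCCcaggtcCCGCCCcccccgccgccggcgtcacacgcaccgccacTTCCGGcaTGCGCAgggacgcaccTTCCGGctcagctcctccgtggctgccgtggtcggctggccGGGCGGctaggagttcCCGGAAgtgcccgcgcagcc
UQCR11 (chr19:1605463-1605612, strand -): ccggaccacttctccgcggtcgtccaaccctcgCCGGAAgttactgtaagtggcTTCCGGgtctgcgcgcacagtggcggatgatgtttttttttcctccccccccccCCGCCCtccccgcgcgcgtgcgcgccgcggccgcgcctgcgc
COX8A (chr11:63974470-63974619, strand +): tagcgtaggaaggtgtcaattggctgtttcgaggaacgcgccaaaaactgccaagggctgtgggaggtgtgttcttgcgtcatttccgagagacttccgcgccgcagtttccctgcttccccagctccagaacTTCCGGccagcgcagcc
COX7B2 (chr4:46909246-46909395, strand -): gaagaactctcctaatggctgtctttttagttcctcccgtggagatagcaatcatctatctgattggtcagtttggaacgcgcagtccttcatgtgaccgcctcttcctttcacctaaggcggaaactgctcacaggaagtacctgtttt
NDUFAF2 (chr5:60945055-60945204, strand +): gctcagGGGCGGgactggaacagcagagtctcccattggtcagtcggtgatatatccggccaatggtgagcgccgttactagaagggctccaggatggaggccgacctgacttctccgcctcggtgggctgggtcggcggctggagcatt
SDHAF2 held ETS, NRF1 and SP1 letters in this stretch, UQCR11 the ETS core on both strands and an SP1 box, and COX8A an ETS core. NDUFV1, which rose in every treatment, held none of the 4 motifs there, as did COX7B2, which fell, and NDUFAF2 held an SP1 box. The NDUFAF2 stretch is that of its annotated locus, which the cluster used may not read.

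With the 1.5-fold limit, more of these genes were raised at 12 h than at 24 h in each treatment, and Cis/TM at 24 h raised the fewest. After Cis at 12 h, 47 of the 94 were raised and 2 lowered, while 14.8% of all genes tested were raised and 10.8% lowered. The median log2 fold change of the 94 was 0.61, against -0.01 over all genes, and all Cis arrays lay above all Control arrays for 64 of the 94, against 24.1% of all genes. At 24 h of Cis, 24 were raised and 2 lowered (background 11.5% and 4.9%), with a median of 0.28 against -0.03, and the arrays lay wholly above Control for 55 (24.9% of all genes). The median level of the 94 was 8.96, 8.92 and 8.82 on the Cis 12 h arrays and 8.44, 8.37 and 8.37 on the Cis 24 h arrays, against 7.89, 8.03 and 8.06 on the Control arrays, and no treated array fell within the Control range.

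TM alone also raised genes of each complex at 12 h. At 12 h of TM, 24 of the 94 were raised and 1 lowered (background 8.99% and 3.11%; median 0.31 against -0.04), and at 24 h, 8 were raised and none lowered (background 5.16% and 2.55%; median 0.15 against 0.00). With both drugs for 12 h, 40 were raised and 2 lowered (background 15.2% and 8.55%; median 0.49 against -0.05). With both for 24 h, 4 were raised and none lowered, a share of 4.26% beside a background of 4.54% raised and 2.48% lowered (median 0.12 against -0.02). The arrays lay wholly above Control for 61 of the 94 with TM at 12 h (25.6% of all genes), 31 with TM at 24 h (16.4%), 72 with Cis/TM at 12 h (26.5%) and 25 with Cis/TM at 24 h (16.9%). The median level of the 94 was 8.41 and 8.49 on the TM 12 h arrays, 8.24, 8.27 and 8.38 on the TM 24 h arrays, 8.81, 8.77 and 8.78 on the Cis/TM 12 h arrays and 8.40, 8.27 and 8.26 on the Cis/TM 24 h arrays. All these also lay above the Control arrays, which every comparison shares. In bulk RNA, fewer cells expressing a gene and less of its RNA per cell cannot be told apart.

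Other scalings gave fewer raised genes, both among the 94 and over all genes, except that 4 of the 94 stayed raised by Cis/TM at 24 h with median centring. With the trend of fold change with level removed, 37 of the 94 were raised by Cis at 12 h, 12 at 24 h, 14 by TM at 12 h, 4 at 24 h, 29 by Cis/TM at 12 h and 1 at 24 h, while 11, 6.3, 5.43, 2.87, 10.7 and 2.8% of all genes were raised. Centring each array on its median moved the median of all genes by Cis at 12 h to -0.16 and that of the 94 to 0.45, with 34 raised. It turned the split over all genes to 11% raised and 16.7% lowered. The share of all genes lowered was larger with centring in each of the 6 comparisons, and 3 of the 94 in place of 2 were then lowered by Cis at 24 h and by Cis/TM at 12 h. Of the 47 genes raised by Cis at 12 h, 30 were raised under all 3 alternative scalings, and of the 40 raised by Cis/TM at 12 h, 27 were. The other counts were 12 of 24 for Cis at 24 h, 11 of 24 for TM at 12 h, 4 of 8 for TM at 24 h and 1 of 4 for Cis/TM at 24 h.

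**Figure D1:**
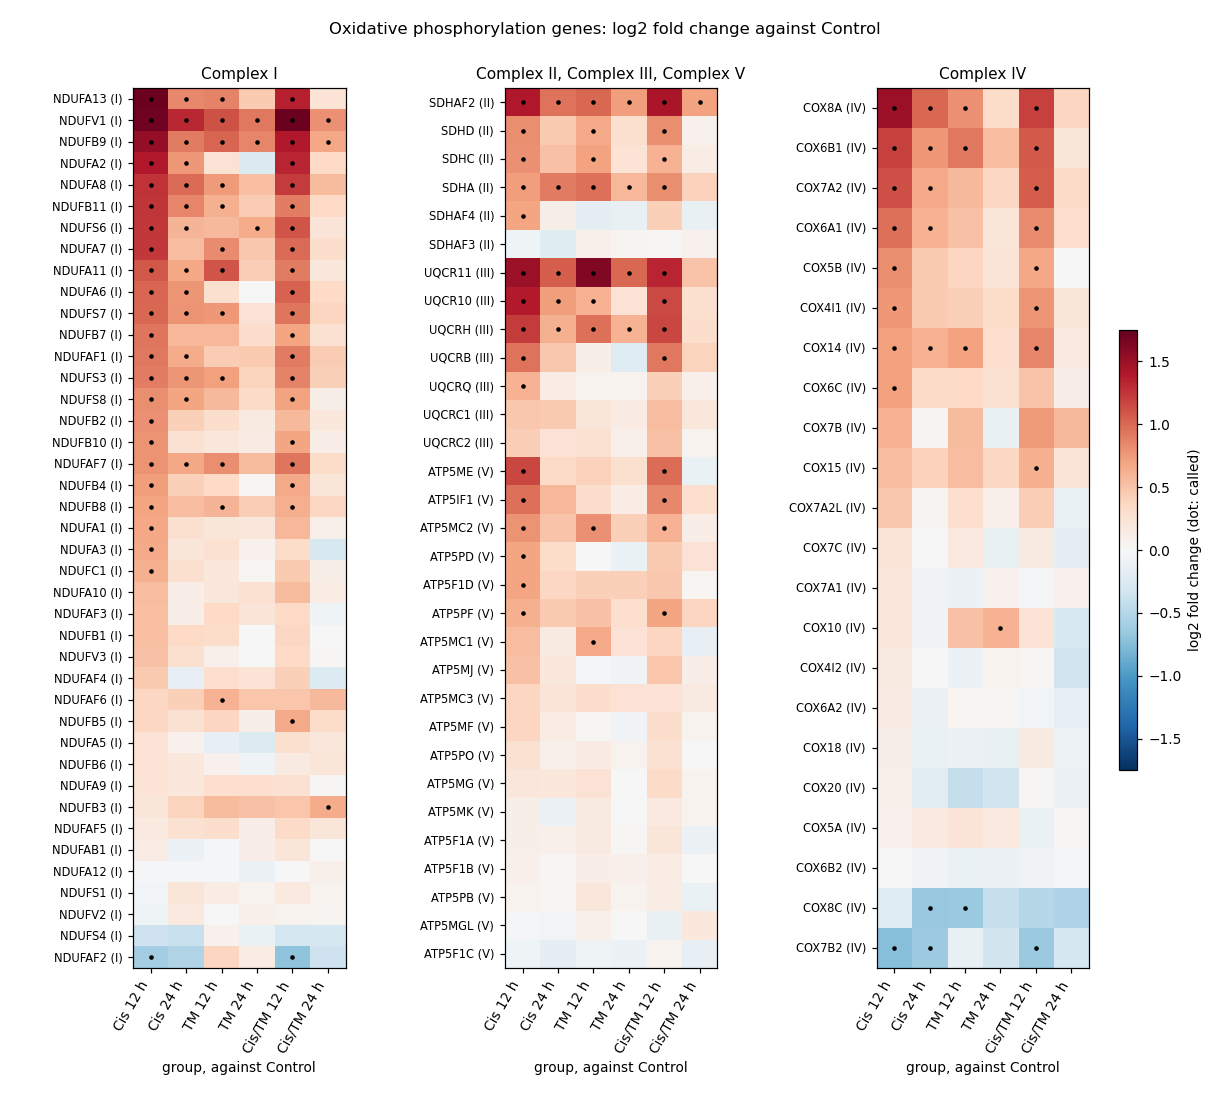
Log2 fold change against Control of each of the 94 genes (rows, ordered within each complex by the change after 12 h of Cis) in the 6 treatments (columns), from blue (lower) to red (higher), with a dot where a gene was called. Dots are densest in the Cis 12 h and Cis/TM 12 h columns (47 raised and 40 raised) and rarest with Cis/TM at 24 h (4 raised).

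Of the 94 genes, 3 were raised in all 6 comparisons, 38 were called in none, and none was called in both directions. The same counts were not made over all genes, and the 6 comparisons share their Control arrays. The genes raised in all 6 were NDUFV1, NDUFB9 and SDHAF2. NDUFV1, the subunit that binds FMN and takes the electrons from NADH, had 9.11, 9.52 and 9.21 with Cis at 12 h, 9.02, 8.88 and 8.82 with Cis at 24 h, 8.74 and 8.65 with TM at 12 h, 8.54, 8.33 and 8.67 with TM at 24 h, 9.49, 9.23 and 9.19 with Cis/TM at 12 h and 8.51, 8.39 and 8.27 with Cis/TM at 24 h, against 7.62, 7.78 and 7.35 in Control. No treated array overlapped the Control arrays. Its log2 fold change was 1.70 (SE 0.13, limma adjusted p = 4.7e-09) with Cis at 12 h, 1.32 with Cis at 24 h, 1.11 with TM at 12 h, 0.93 with TM at 24 h, 1.72 with Cis/TM at 12 h and 0.80 (SE 0.13, adjusted p = 3.3e-04) with Cis/TM at 24 h, and it was called in each under the 3 other scalings too.

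NDUFB9, an accessory subunit of the membrane arm of Complex I, had 8.96, 8.92 and 9.04 with Cis at 12 h, 8.38, 8.34 and 8.31 with Cis at 24 h, 8.41 and 8.48 with TM at 12 h, 8.25, 8.38 and 8.25 with TM at 24 h, 8.94, 8.84 and 8.74 with Cis/TM at 12 h and 7.99, 8.20 and 8.15 with Cis/TM at 24 h, against 7.59, 7.25 and 7.46 in Control. SDHAF2, which inserts FAD into SDHA, had 9.56, 9.37 and 9.24 with Cis at 12 h, 8.89, 8.99 and 8.91 with Cis at 24 h, 9.04 and 8.94 with TM at 12 h, 8.73, 8.63 and 8.78 with TM at 24 h, 9.45, 9.39 and 9.38 with Cis/TM at 12 h and 8.76, 8.64 and 8.64 with Cis/TM at 24 h, against 7.87, 8.26 and 7.82 in Control. All treated arrays were above all Control arrays for both genes. NDUFB9 rose by 1.54 (SE 0.10, limma adjusted p = 4.1e-10) and SDHAF2 by 1.41 (SE 0.11, adjusted p = 5.2e-09) on the log2 scale with Cis at 12 h, and by 0.68 and 0.70 with Cis/TM at 24 h, where both calls were lost with quantile normalization and with the trend removed.

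**Figure D2:**
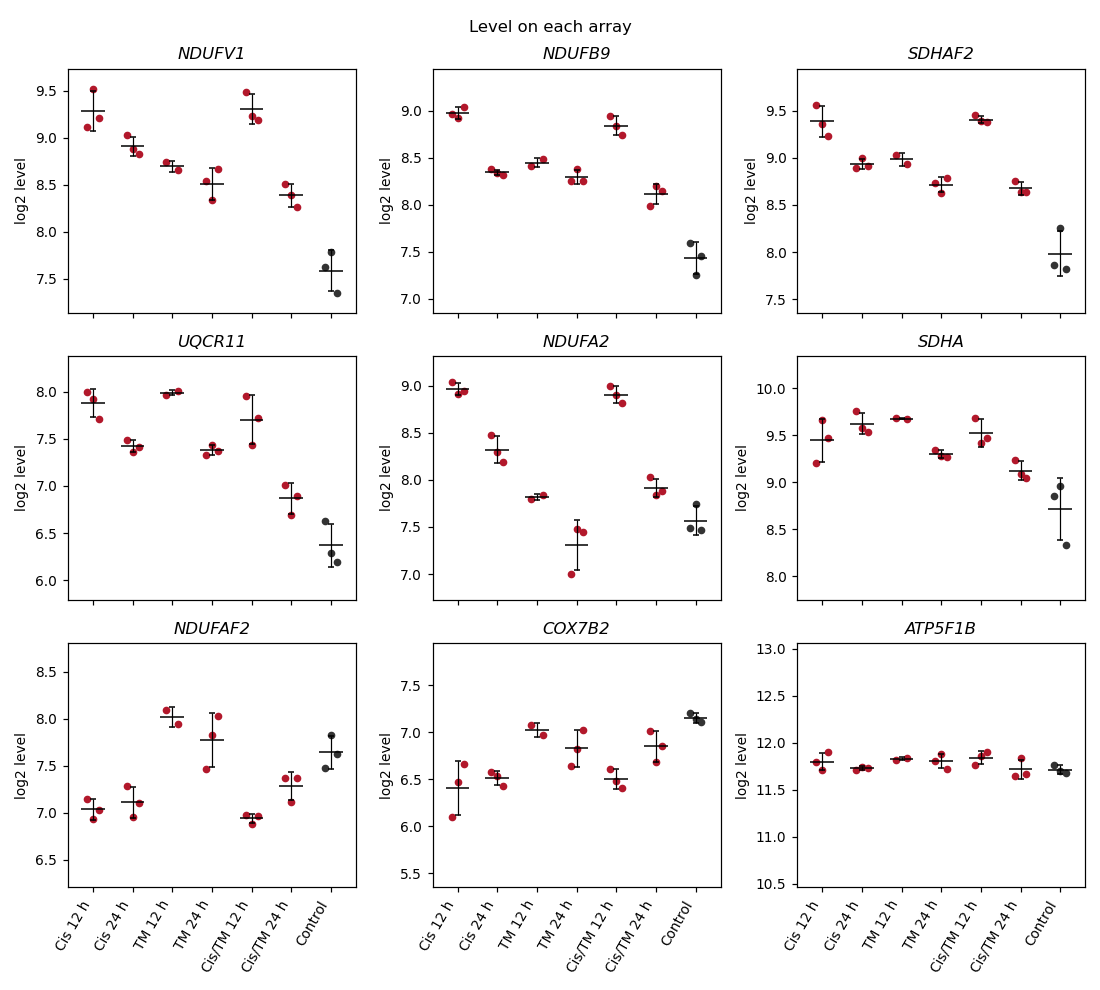
Log2 level of 9 genes on each array (points, treated in red and Control in black), with the group mean (line) and SD (bar; 2 arrays with TM at 12 h and 3 in the other groups). NDUFV1, NDUFB9 and SDHAF2 lie above Control in every treatment, NDUFA2 well above it in the groups given Cis for 12 h alone or with TM, NDUFAF2 below it in the Cis and Cis/TM groups, COX7B2 below it in all 6, and ATP5F1B between 11.65 and 11.90 on every array.

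Complex I is the largest of the sets. Of its 41 genes, Cis raised 23 at 12 h (56.1%, against 14.8% of all genes) and 14 at 24 h (34.1%, against 11.5%). TM raised 12 at 12 h (29.3%, against 8.99%) and 3 at 24 h (7.32%, against 5.16%), and Cis/TM raised 20 (48.8%, against 15.2%) and 3 (7.32%, against 4.54%), so that with TM or Cis/TM at 24 h the share was near that of all genes. NDUFA13, an accessory subunit also known as GRIM-19, had 8.52, 8.95 and 8.51 with Cis at 12 h against 6.74, 7.51 and 6.60 in Control. The change of 1.71 (SE 0.20, limma adjusted p = 1.0e-06) was the largest of any of the 94 in that comparison, although the Control arrays were widely spread. The core subunits of the arm that reaches ubiquinone also rose: NDUFS3 by 0.90, NDUFS7 by 1.01 and NDUFS8 by 0.82 with Cis at 12 h. NDUFS6, which binds zinc, rose by 1.24, and NDUFA8 and NDUFB11, accessory subunits, by 1.26 and 1.25.

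Not all of the NADH-oxidizing part moved. NDUFV2 and NDUFS1, core iron-sulphur subunits that sit beside NDUFV1, had log2 fold changes of -0.07 and -0.05 with Cis at 12 h and between -0.07 and 0.21 in all 6 comparisons, and neither was called. NDUFA12 was between -0.10 and 0.09 and was not called either. The cluster used for NDUFV2 has an array identifier among those of genes on another chromosome. It may read another locus, which was not tested. In Cis/TM 24 h the fourth called gene besides those raised throughout was NDUFB3, an accessory subunit, with 7.996, 7.98 and 7.83 against 6.93, 7.45 and 7.47 in Control (0.65, SE 0.16, limma adjusted p = 0.00921). That call was lost with quantile normalization (0.48), with the trend removed (0.48) and without Control replicate A (0.48).

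NDUFA2 and NDUFA6, accessory subunits of the matrix arm, were raised by Cis and by Cis/TM at 12 h and were not called with TM. NDUFA2 had 9.04, 8.91 and 8.95 with Cis at 12 h, 8.996, 8.90 and 8.82 with Cis/TM at 12 h, and 7.80 and 7.84 with TM at 12 h, against 7.49, 7.75 and 7.47 in Control. The TM arrays lay just above Control and far below the other groups. Its changes against Control were 1.40 with Cis at 12 h, 1.34 with Cis/TM at 12 h and 0.25 with TM at 12 h. NDUFA6 changed by 1.01, 1.04 and 0.28 in the same groups. The assembly factors differed among themselves: NDUFAF1, which acts early on the membrane arm, rose by 0.92 with Cis at 12 h and 0.90 with Cis/TM at 12 h, and NDUFAF7, a methyltransferase for a core subunit, rose by 0.78 and 0.94, with 0.82 with TM at 12 h.

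NDUFAF2, a late-acting chaperone of the NADH-oxidizing arm, was the only Complex I gene lowered. It had 7.15, 6.93 and 7.03 with Cis at 12 h and 6.97, 6.89 and 6.97 with Cis/TM at 12 h, and 8.10 and 7.95 with TM at 12 h, against 7.48, 7.83 and 7.62 in Control. Both cisplatin groups were below all Control arrays, and both TM arrays above. It fell by 0.61 on the log2 scale with Cis at 12 h (SE 0.13, limma adjusted p = 9.0e-04) and by 0.70 with Cis/TM at 12 h (adjusted p = 2.6e-04), with 0.38 with TM at 12 h (not called). In Cis 12 h the call was lost with the mean of the gene's 2 clusters (-0.51), without Cis 12 h replicate B (-0.55) and without Control replicate B (-0.52). The brighter cluster, used here, has an array identifier among those of genes on another chromosome. Whether it reads NDUFAF2 or another locus was not tested.

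Complex II is represented by SDHA, SDHC and SDHD and by 3 assembly factors. Cis raised 5 of the 6 genes at 12 h and 2 at 24 h, TM raised 4 and 2, and Cis/TM raised 4 and 1, while over all genes 14.8 and 11.5%, 8.99 and 5.16%, and 15.2 and 4.54% were raised. SDHA, the flavoprotein that oxidizes succinate, had 9.21, 9.66 and 9.47 with Cis at 12 h, 9.75, 9.58 and 9.54 with Cis at 24 h and 9.68 and 9.67 with TM at 12 h, against 8.85, 8.96 and 8.33 in Control. Its changes were 0.73 with Cis at 12 h, 0.91 with Cis at 24 h, 0.96 with TM at 12 h (limma adjusted p = 2.1e-04), 0.59 with TM at 24 h, 0.81 with Cis/TM at 12 h and 0.41 with Cis/TM at 24 h, the last not called. SDHA was thus raised in 5 comparisons, and no treated group with a call overlapped Control. The call with Cis at 12 h was lost without Control replicate C (0.54), and that with TM at 24 h without it (0.40) or without TM 24 h replicate A (0.56). SDHA has several pseudogenes that its probes could also read, and the clusters that name both were not used. SDHB, the iron-sulphur subunit, was not analysed here.

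The membrane anchors SDHC and SDHD rose by 0.80 and 0.82 with Cis at 12 h, 0.70 and 0.66 with TM at 12 h and 0.61 and 0.81 with Cis/TM at 12 h, and neither was called at 24 h in any treatment. With the mean of the gene's 2 clusters in place of the brighter, SDHC was not called in any of the 3 (0.41, 0.42 and 0.26). The clusters used for SDHC and SDHD have array identifiers that fall among those of genes on other chromosomes. They may read other loci, which was not tested. SDHAF4, a chaperone of SDHA, rose by 0.69 with Cis at 12 h from a low signal, and SDHAF3, a factor for the iron-sulphur subunit, was between -0.22 and 0.09 throughout.

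Complex III had the highest median change with Cis at 12 h, 0.95 over its 7 genes, against 0.76 in Complex II, 0.68 in Complex I, 0.38 in Complex V and 0.35 in Complex IV. It had 5 genes raised with Cis at 12 h and 3 with Cis at 24 h, 3 and 2 with TM, and 4 and 0 with Cis/TM, beside the same shares of all genes. UQCR11, a small subunit, had 8.0, 7.92 and 7.71 with Cis at 12 h, 7.49, 7.37 and 7.41 with Cis at 24 h, 7.97 and 8.01 with TM at 12 h, 7.33, 7.44 and 7.37 with TM at 24 h, 7.95, 7.44 and 7.72 with Cis/TM at 12 h and 7.01, 6.69 and 6.89 with Cis/TM at 24 h, against 6.63, 6.29 and 6.19 in Control. Every treated array lay above every Control array. Its change was 1.62 with TM at 12 h (SE 0.15, limma adjusted p = 9.0e-07) and 1.51 with Cis at 12 h. It was raised in every comparison but Cis/TM 24 h (0.50).

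UQCRH, the hinge protein that binds cytochrome c1, had 8.22, 8.41 and 8.34 with Cis at 12 h and 8.16 and 7.97 with TM at 12 h, against 7.03, 7.20 and 7.08 in Control, and was raised in the same 5 comparisons (1.22 with Cis at 12 h and 0.96 with TM at 12 h). The calls on UQCRH with TM at 24 h (0.61) and with Cis at 24 h (0.63) were each lost when 1 array was left out (0.57 without TM 24 h replicate B or Control replicate A, 0.55 without Cis 24 h replicate A). A cluster that names UQCRH together with a paralogue was not used. UQCR10, another small subunit, rose by 1.39 with Cis at 12 h, 1.16 with Cis/TM at 12 h and 0.61 with TM at 12 h. UQCRB, which helps to bind ubiquinone, rose by 0.95 with Cis at 12 h and 0.92 with Cis/TM at 12 h, with 0.10 with TM at 12 h. The large core proteins UQCRC1 and UQCRC2 were called in none, with changes of 0.48 and 0.43 with Cis at 12 h.

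**Figure D3:**
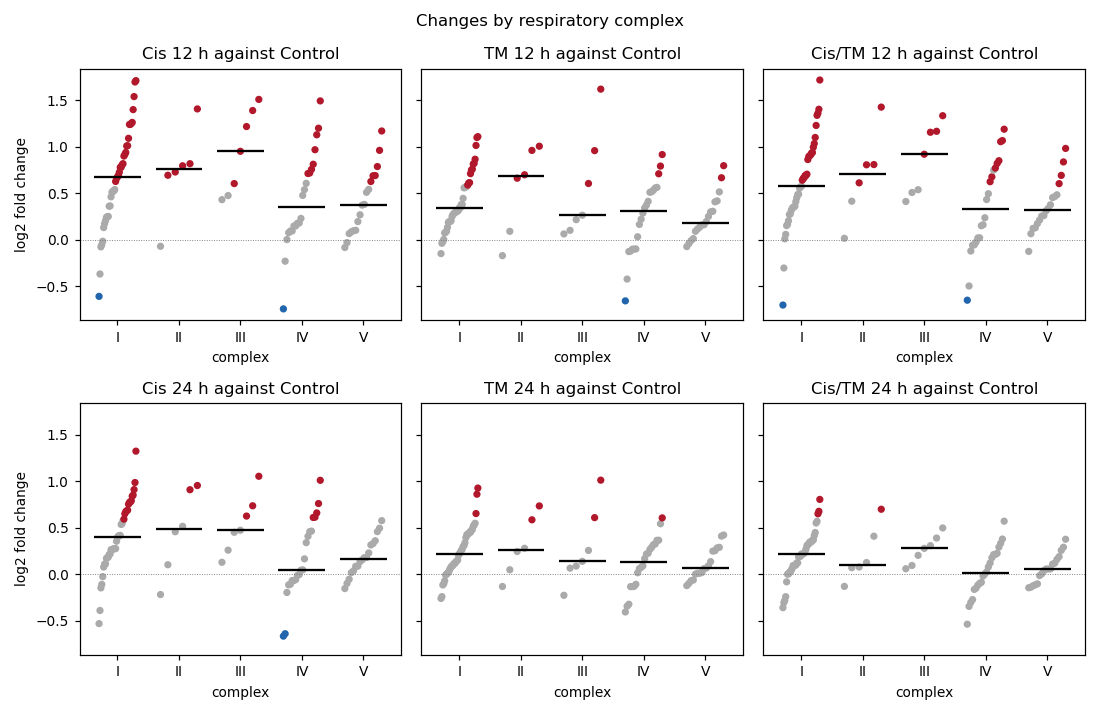
Log2 fold change against Control of the genes of each complex (points, sorted within a complex, red raised, blue lowered, grey not called) with the median of the complex (line), at 12 h (upper row) and 24 h (lower row). Medians with Cis at 12 h were 0.68, 0.76, 0.95, 0.35 and 0.38 for complexes I to V, and the 24 h panels hold fewer red points.

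In Complex IV, which takes up copper, 8 of 22 genes (36.4%, against 14.8% of all genes) were raised by Cis at 12 h and 5 (22.7%, against 11.5%) at 24 h. Cis/TM raised 8 (36.4%, against 15.2%) at 12 h and none at 24 h, and TM raised 3 (13.6%, against 8.99%) and 1 (4.55%, against 5.16%), near the share of all genes. The ubiquitous isoforms rose: COX8A by 1.49 (SE 0.14, limma adjusted p = 3.4e-08) with Cis at 12 h, COX6B1 by 1.20, COX7A2 by 1.13, COX6A1 by 0.97 and COX4I1 by 0.76. COX8A had 10.002, 9.86 and 9.59 with Cis at 12 h, 9.71, 9.42 and 9.41 with Cis/TM at 12 h and 9.12 and 9.11 with TM at 12 h, against 8.08, 8.40 and 8.49 in Control. Each of these groups lay above Control. The tissue-restricted counterparts COX4I2, COX6A2, COX6B2 and COX7A1 were between -0.34 and 0.18 in all 6 comparisons and were not called, and their mean signals were 3.48 to 6.45.

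COX5A and COX7C, further subunits, were not called in any comparison (0.08 and 0.23 with Cis at 12 h). COX7B varied widely between arrays of 1 group, with 7.11, 8.84 and 8.51 with TM at 24 h and 8.47, 7.62 and 8.77 in Control, and a change of 0.61 with Cis at 12 h did not pass (adjusted p = 0.126). Of the factors of heme A synthesis, COX15 rose by 0.63 with Cis/TM at 12 h, and COX10, which makes the heme A precursor, rose by 0.61 with TM at 24 h alone (adjusted p = 0.0235), with arrays overlapping Control and the call lost under each of 4 single-array omissions. COX14, which takes part in COX1 synthesis, rose by 0.72 with Cis at 12 h, 0.61 with Cis at 24 h, 0.71 with TM at 12 h and 0.85 with Cis/TM at 12 h, whereas COX18 and COX20 were called in none.

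COX7B2 and COX8C, paralogues of Complex IV subunits known mainly from testis, were lower. COX7B2 had 6.10, 6.47 and 6.67 with Cis at 12 h, 6.58, 6.54 and 6.43 with Cis at 24 h and 6.61, 6.49 and 6.41 with Cis/TM at 12 h, against 7.21, 7.14 and 7.11 in Control, with no overlap. It fell by 0.74 (SE 0.13, limma adjusted p = 1.0e-04), 0.64 and 0.65 on the log2 scale in these groups, and the call with Cis at 12 h was lost without Cis 12 h replicate A (-0.58). COX8C, with a signal near the bottom of the array's range, had 3.60, 3.48 and 3.33 with Cis at 24 h and 3.49 and 3.47 with TM at 12 h, against 4.17, 4.57 and 3.67 in Control. It fell by 0.66 on the log2 scale with both. Both calls were lost with quantile normalization, with the trend removed and without Control replicate B, and that with TM also without either TM array.

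In Complex V, 6 of 18 genes (33.3%, against 14.8% of all genes) were raised with Cis at 12 h and 4 (22.2%, against 15.2%) with Cis/TM at 12 h. With TM at 12 h, 2 (11.1%, against 8.99%) were raised, near the share of all genes, and none was raised at 24 h in any treatment. Of the F1 subunits, ATP5F1D, the delta subunit, rose by 0.69 with Cis at 12 h (limma adjusted p = 2.5e-04), and ATP5F1A, ATP5F1B and ATP5F1C were called in none. ATP5F1B, the beta subunit, had 11.79, 11.71 and 11.90 with Cis at 12 h and 11.77, 11.86 and 11.90 with Cis/TM at 12 h, against 11.77, 11.70 and 11.68 in Control, and changed by 0.09 (SE 0.09) with Cis at 12 h. ATP5F1A and ATP5F1C, the alpha and gamma subunits, and ATP5PB of the peripheral stalk were between -0.15 and 0.21 in all 6. Small membrane and stalk subunits did change: ATP5ME rose by 1.17 with Cis at 12 h and 0.98 with Cis/TM at 12 h, ATP5PD by 0.69 with Cis at 12 h, and ATP5PF by 0.63 and 0.69. ATP5IF1, which blocks reverse ATP hydrolysis, had 8.11, 8.04 and 8.11 with Cis at 12 h against 7.26, 6.93 and 7.19 in Control and rose by 0.96 (SE 0.11, limma adjusted p = 4.0e-07).

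ATP5MC1, ATP5MC2 and ATP5MC3 code for the same mature c subunit of the proton ring. ATP5MC2 rose by 0.79 with Cis at 12 h, 0.80 with TM at 12 h and 0.60 with Cis/TM at 12 h, ATP5MC1 by 0.67 with TM at 12 h alone, and ATP5MC3 was called in none, with 0.16 to 0.38. Signals of different genes are read by different probes, so their order is not one of transcript number. On that scale the highest means were those of ATP5MG (11.78), ATP5F1B (11.77), ATP5PB (11.13), ATP5F1C (11.003) and NDUFA1 (11.003), and the lowest those of COX6B2 (3.48), COX8C (3.72), SDHAF4 (4.25), ATP5MGL (4.59) and COX7A1 (4.74).

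The combination was then set against each single drug. No gene of the 94, nor any gene tested (background 0%), differed between Cis/TM and Cis at 12 h, although 9 of the 94 had an unadjusted limma p under 0.05, and the changes ran from -0.36 (NDUFB11) to 0.30 (NDUFB5). At 24 h, NDUFS8 and COX8A were lower in Cis/TM than in Cis and none was higher (background 1.05% lower and 0.456% higher). NDUFS8 had 7.05, 6.94 and 6.62 in Cis/TM against 7.56, 7.45 and 7.37 in Cis (-0.59, adjusted p = 0.0101), and COX8A had 8.84, 8.58 and 8.69 against 9.46, 9.41 and 9.12 (-0.63, adjusted p = 0.0174). Neither pair overlapped, but both calls were lost with median centring and under several single-array omissions (NDUFS8 to -0.47 without Cis/TM 24 h replicate C, COX8A to -0.57 without Cis 24 h replicate A).

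Against TM at 12 h, 4 genes were higher in Cis/TM and 1 was lower (background 6.61% and 6.98%). NDUFA2 differed by 1.09 (adjusted p = 6.4e-06), UQCRB by 0.82 (0.00454), NDUFA6 by 0.75 (1.2e-05) and NDUFV1 by 0.61 (0.00458), and NDUFAF2 by -1.08 (2.0e-05). NDUFA2 had 8.996, 8.90 and 8.82 in Cis/TM against 7.80 and 7.84 in TM, and NDUFAF2 had 6.97, 6.89 and 6.97 against 8.10 and 7.95, both without overlap. The call on NDUFV1 was lost with median centring (0.56), without TM 12 h replicate B and without Cis/TM 12 h replicate A, and that on UQCRB without TM 12 h replicate B (0.73). At 24 h, NDUFA2 (0.61) and UQCRB (0.62) were higher in Cis/TM than in TM and COX10 was lower (-0.88, adjusted p = 0.00252; background 3.53% higher and 2.75% lower), and without TM 24 h replicate A neither NDUFA2 (0.45) nor UQCRB (0.47) was called.

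Every call between the times was downward, with lower levels at 24 h than at 12 h. In Cis, 10 genes were lower at 24 h and none higher (background 3.42% and 7.21%), with NDUFA13 at -0.87, ATP5ME at -0.84 and NDUFA7 at -0.70. In Cis/TM, 24 were lower and none higher (background 8.07% and 5.67%), with NDUFA13 at -1.12, ATP5ME at -1.10 and NDUFA2 at -0.99. ATP5ME had 8.67, 8.28 and 8.40 with Cis/TM at 24 h against 9.75, 9.47 and 9.41 with Cis/TM at 12 h. In TM, none passed (background 0.00543% lower and 0% higher), with 23 genes at an unadjusted limma p under 0.05, and the lowest values were those of COX7B (-0.69) and NDUFA11 (-0.67). Of the genes raised against Control, 24 were raised at both times by Cis, 6 by TM and 3 by Cis/TM. Over all genes, 14.8 and 11.5% were raised by Cis at 12 h and 24 h. For TM these shares were 8.99 and 5.16%, and for Cis/TM 15.2 and 4.54%. The share raised at both times was not counted over all genes.

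To ask whether the drugs together did more or less than each alone, the combined change was set against the sum of the single ones on the log2 scale. At 12 h, 27 genes were below that sum and none above (background 6.87% below and 3.43% above). At 24 h, 29 were below and 1 above (11.4% and 5.08%). The 24 h count below was 15 under quantile normalization and 14 with the trend removed, where the share of all genes was not counted. UQCR11 changed by 1.33 in Cis/TM at 12 h, while its single changes of 1.51 and 1.62 add to 3.13, a departure of -1.80 (SE 0.20, limma adjusted p = 2.9e-05). At 24 h it changed by 0.50, against a sum of 2.07, a departure of -1.57. Of the 27 genes at 12 h, 24 were still raised by Cis/TM, and 25 changed less than with the single drug that moved them more. At 24 h, 3 of the 29 were raised, and all 29 changed less than with the stronger single drug. These genes were picked by a low Cis/TM value in the same contrast, so such counts are partly built in. Among those of the 94 with a positive change under both single drugs, called or not, 56 of 74 at 12 h changed less than with the stronger drug. At 24 h, 62 of 65 did. The same counts were not made over all genes, so they do not set these genes apart. Compared directly, none of the 94 differed between Cis/TM and Cis at 12 h, and 2 did at 24 h. The Control mean enters this contrast with a sign opposite to that in the single comparisons, so that an error of the 3 Control arrays moves all of these values together.

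**Figure D4:**
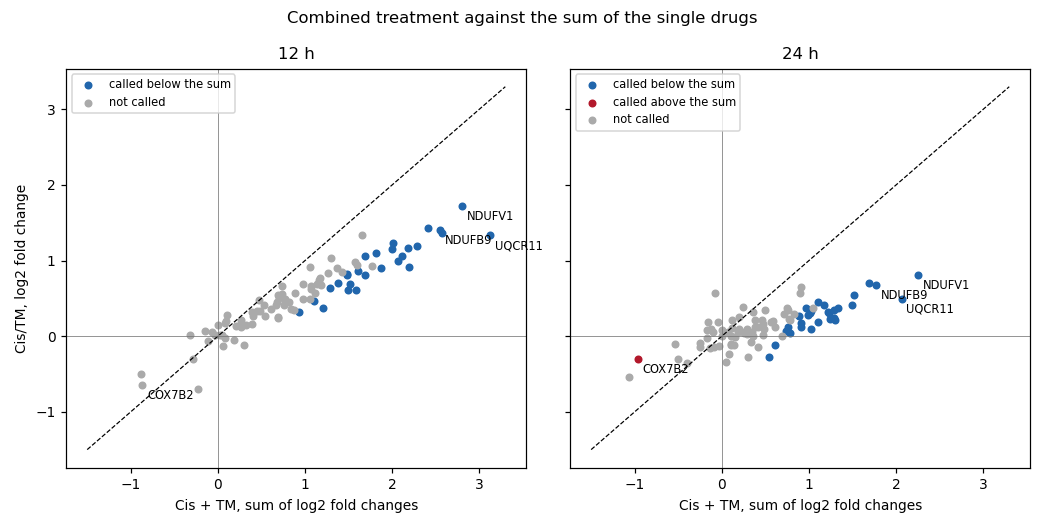
Log2 fold change against Control with Cis/TM (vertical axis) against the sum of the changes with Cis and with TM (horizontal axis), one point a gene, at 12 h and 24 h; the dashed line marks equality. Genes called below the sum (blue, 27 at 12 h and 29 at 24 h) lie to the right of the line, and UQCR11 is farthest from it.

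The 94 genes were short for the most part, with a median of 10.8 kb in the RefSeq table (GRCh38.p14) and 45 under 10 kb. The 2 genes lowered by Cis at 12 h were both long, NDUFAF2 with 208 kb and COX7B2 with 174 kb. The length of NDUFAF2 is that of its annotated locus, which the cluster used may not read. None of the 47 raised genes exceeded 50.4 kb, and their median was 8.29 kb, against 13.8 kb for the 45 not called. Of the 6 genes over 100 kb, NDUFS4 changed by -0.37, COX10 by 0.18, NDUFAF6 by 0.37 and NDUFA10 by 0.54, none called. Their median was -0.09 with Cis at 12 h, against 0.69 for the 45 under 10 kb, while with TM at 12 h the medians were 0.29 and 0.30. Across the 94 genes, the Spearman correlation of length with the change was rho = -0.29 with Cis at 12 h and -0.01 with TM at 12 h, and across 18385 genes with a length it was -0.39 and -0.01. Genes are not independent replicates, and these values are a description.

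**Figure D5:**
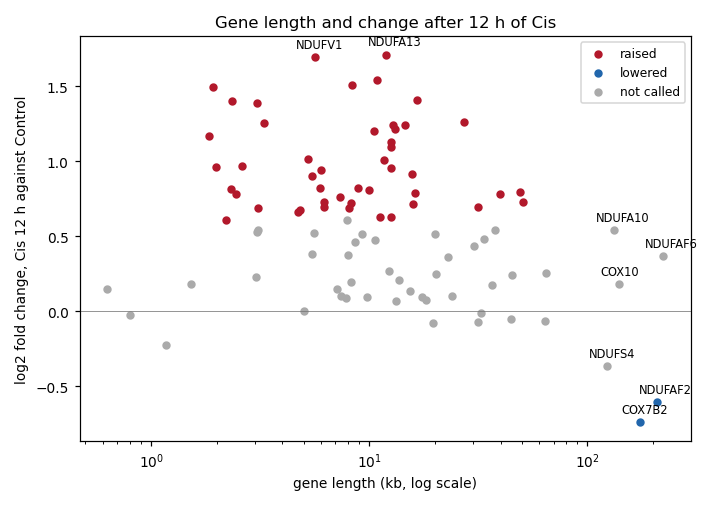
Gene length (kb, log scale) and log2 fold change with Cis at 12 h against Control for each of the 94 genes (red raised, blue lowered, grey not called). The 6 genes over 100 kb lie at 0.54 or lower, and both lowered genes, NDUFAF2 and COX7B2, are among them. Whether the NDUFAF2 cluster reads that locus was not tested.

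Genes of the same pathway without these prefixes were counted from a list of 51, which also holds 15 regulators of mitochondrial gene expression. Cis raised 16 and lowered 4 at 12 h and raised 9 and lowered 1 at 24 h, TM raised 11 and 7 and lowered none, and Cis/TM raised 16 and lowered 1 at 12 h and raised 3 and lowered 1 at 24 h. The shares raised were 31.4, 17.6, 21.6, 13.7, 31.4 and 5.88% for Cis, TM and Cis/TM at 12 h and 24 h each, against 14.8, 11.5, 8.99, 5.16, 15.2 and 4.54% of all genes, so that Cis/TM at 24 h was near the share of all genes. The 4 lowered by Cis at 12 h (7.84%) were fewer in share than over all genes (10.8%). CYC1, the cytochrome c1 of Complex III, was raised in all 6, by 1.88 with Cis at 12 h, 1.41 with TM at 12 h and 1.80 with Cis/TM at 12 h, whereas CYCS, cytochrome c itself, was at 0.01 with Cis at 12 h. BCS1L, which inserts the iron-sulphur protein into Complex III, was raised in all 6 as well, by 2.10 with Cis at 12 h and 0.91 with Cis/TM at 24 h. Of 16 copper delivery and assembly factors of Complex IV, 8 were raised by Cis at 12 h (background 14.8%), SCO1 (0.96) and COA7 (1.22) among them, and 1 was lowered (LRPPRC, -0.62). TM at 12 h raised 3 (18.8%, against 8.99%). NUBPL, an iron-sulphur assembly factor of Complex I, fell by 1.42 with Cis at 12 h, 1.67 with Cis at 24 h, 1.51 with Cis/TM at 12 h and 1.24 with Cis/TM at 24 h on the log2 scale, and it was not called with TM.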

How the data were processed

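The log2 values were made by the authors with RMA (named in the submitters' processing notes and the study's methods) from the 20 arrays and deposited as 1 table, and were used without further transformation. RMA removes background and scales arrays alike, and it keeps no detection call. RNA was extracted with Trizol per the labels and with a column kit per the study's methods. The table holds 33297 transcript clusters, of which 19460 carry 1 gene symbol, 1754 several and 12083 none in the platform annotation. For each gene the single-symbol cluster with the highest mean was taken (18417 genes). In all, 12 clusters that join such a symbol with others were not used, 8 of the 94 genes had more than 1 cluster, and 4 symbols (2 pseudogenes, a non-coding transcript and COX11) were left out. For ATP5MK, NDUFAF2, NDUFV2, SDHC and SDHD, the brighter cluster has an identifier among those of genes on another chromosome. Whether these clusters read the named genes was not tested.

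Group means were fitted over all 7 groups with limma 3.58.1 in R 4.3.3 (lmFit, contrasts, eBayes, 13 residual degrees of freedom), with Benjamini-Hochberg adjustment over all genes of each comparison. Calls needed both an adjusted p below 0.05 and more than 1.5-fold change. The script was tested on simulated data. Named genes were the 5 largest called changes each way against Control, the 3 largest otherwise, genes called in all 6 comparisons, succinate dehydrogenase subunits, isoform sets, called Complex IV assembly factors, the extremes of signal and up to 4 called genes of each outside list; NDUFS3, NDUFS7 and other subunits beside these were chosen after their values were seen, and so was the comparison with gene length. The members, lists and tests were chosen with earlier results of these data known. Alternatives were median centring, quantile normalization, removal of the trend with level, a filter on low genes, the mean of a gene's clusters, a replicate block, a variance trend with a robust prior, fits of the compared groups only, other thresholds and leaving out each array.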

Additional observations from a re-analysis of the deposited data

Results flagged for a closer look

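The combination of the drugs was tested for a departure from the sum of the single drugs on the log2 scale, and the results here are those in which the difference itself passed. At 12 h, 27 of the 94 genes were below the sum, beside 6.87% of all genes. The largest departures were -1.80 for UQCR11, -1.28 for NDUFA11 and -1.22 for NDUFA13. The departure of NDUFA13 did not pass without TM 12 h replicate B (-1.16, limma adjusted p = 0.065).

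At 24 h, 29 of the 94 genes were below the sum, beside 11.4% of all genes. The count was 15 with quantile normalization and 14 with the trend removed. The share of all genes below the sum was not counted under these scalings, so the 11.4% does not serve as their background. The largest departures were -1.57 for UQCR11, -1.45 for NDUFV1 and -1.09 for NDUFB9. Only 1 gene was above the sum (5.08% of all genes were), COX7B2 (0.66), which had 7.01, 6.68 and 6.85 in Cis/TM, 6.58, 6.54 and 6.43 in Cis and 6.64, 6.83 and 7.03 in TM, against 7.21, 7.14 and 7.11 in Control. Its call was lost without TM 24 h replicate A (0.56) and without Cis/TM 24 h replicate A (0.58).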

How the results depend on the processing

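The direction of every called gene was kept under all alternatives run. With an adjusted p under 0.05 alone, the counts raised against Control were 63 with Cis at 12 h, 46 with Cis at 24 h, 41 with TM at 12 h, 24 with TM at 24 h, 65 with Cis/TM at 12 h and 15 with Cis/TM at 24 h, and those lowered were 3, 4, 2, 0, 4 and 1, so that by this limit Cis/TM at 12 h raised more than Cis at 12 h. Over all genes 24.3, 21.4, 15.8, 12.7, 24.2 and 11.4% were then raised and 23.1, 15.5, 9.88, 8.62, 22.2 and 8.08% lowered. It also gave 25 higher and 4 lower in Cis/TM than in TM at 12 h, 5 and 8 at 24 h, 10 lower in Cis/TM than in Cis at 24 h, and 36 and 59 lower at 24 h than at 12 h in Cis and Cis/TM. For these comparisons between treated groups, the share over all genes was not counted at this limit. With an unadjusted p and the fold limit, 2 were lower at 24 h than at 12 h in TM. Quantile normalization gave 12 raised with Cis at 24 h, 11 with TM at 12 h, 5 with TM at 24 h and 1 with Cis/TM at 24 h, 1 lower in Cis/TM than in Cis at 24 h, and 15 below and 2 above the sum at 24 h. With the trend removed these were 12, 14, 4, 1, 1, 14 and 2, with 2 lower in Cis/TM than in TM at 12 h. In the same comparisons with Control, quantile normalization raised 7.09, 5.27, 3.26 and 3.17% of all genes, and trend removal 6.3, 5.43, 2.87 and 2.8%. Median centring gave 4 raised with TM at 24 h (3.58% of all genes), 0 lower in Cis/TM than in Cis at 24 h, 6 lower at 24 h than at 12 h in Cis, and 2 above the sum at 24 h. For comparisons between treated groups and with the sum, the share of all genes was not counted under these scalings. Without low genes 1 was lowered with Cis at 24 h (4.68% of all genes kept) and 0 with TM at 12 h (2.41%). Fits of the compared groups gave 0 lowered with TM at 12 h (1.88% of all genes), and the mean of clusters gave 1 lowered with Cis at 12 h (10.7%). These alternatives change the genes tested, the scale or the limit, and the cause of each shift was not tested.

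Leaving out 1 array gave 45 to 50 raised and 1 to 2 lowered with Cis at 12 h, 21 to 30 and 1 to 3 with Cis at 24 h, 19 to 27 and 0 to 1 with TM at 12 h, 6 to 11 and 0 to 1 with TM at 24 h, 36 to 42 and 2 to 3 with Cis/TM at 12 h, and 4 to 7 and 0 to 1 with Cis/TM at 24 h, the 7 without Control replicate C. It gave 4 to 6 higher and 1 lower in Cis/TM than in TM at 12 h, 0 to 3 and 1 to 2 at 24 h (0 without TM 24 h replicate A), 0 to 4 lower in Cis/TM than in Cis at 24 h (0 without Cis 24 h replicate A and 4 without replicate C), 7 to 11 lower at 24 h than at 12 h in Cis and 20 to 28 in Cis/TM, and 19 to 30 below and 0 to 1 above the sum at 12 h and 24 to 31 and 0 to 2 at 24 h. No call appeared between Cis/TM and Cis at 12 h or between 24 h and 12 h of TM in any omission. Shares over all genes were not counted for the omissions. Where an omission left 1 TM 12 h array, that array was assumed to vary as the other groups do. The replicate letters did not pair the arrays (57 pairs, median r 0.01, -0.42 to 0.61, 6 of 20 arrays correlated best with their own letter); the replicate block lost 3 of 255 called results and kept 252. With no detection call, signals near the bottom of the range cannot be told from background.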

Other observations

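Among the regulators of mitochondrial gene expression, TWNK, the mitochondrial DNA helicase, was raised in all 6 comparisons with Control, by 2.50 with Cis at 12 h, 1.55 with Cis at 24 h, 2.22 with TM at 12 h, 1.85 with TM at 24 h, 2.53 with Cis/TM at 12 h and 0.73 with Cis/TM at 24 h (log2, limma). POLG and POLG2, the subunits of the mitochondrial DNA polymerase, rose by 1.13 and 1.14 with Cis at 12 h and by 1.10 and 1.12 with Cis/TM at 12 h. NRF1 rose by 0.64 with TM at 12 h only, GABPB1, the partner of GABPA, fell by 0.81 with Cis at 12 h only, and PPRC1, a coactivator of NRF1, rose by 0.64 with Cis at 12 h, 1.01 with TM at 12 h, 0.70 with TM at 24 h and 0.79 with Cis/TM at 12 h. LRPPRC, which stabilizes mitochondrial transcripts and was counted above with the Complex IV factors, fell by 0.62 with Cis at 12 h.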
